A study of Homo sapiens with 2 samples.

Results

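Rb peaks on the long arm of chromosome 11 between 61000000 and 72000000 bp (genome build hg19) are described here in VCaP and LNCaP cells, established lines of human prostate cancer. A peak belongs to this stretch if its summit, the base with the most tags, lies within these limits, which gives 228 of 9423 peaks in the VCaP list and 274 of 21994 in the LNCaP list. The limits were chosen by the number of VCaP peaks, which is highest there, so that the VCaP density is a description and is given no test. In both lines Rb was precipitated with the mouse monoclonal antibody 4H1 from formaldehyde-fixed cells after 4 h with 10 nM of the androgen dihydrotestosterone (DHT), which followed 3 days in medium with 5% charcoal-treated serum. Each line has 1 ChIP-seq library, of 8691938 tags in VCaP and 3671482 in LNCaP, and neither cells without DHT nor an input library was analysed here. Both lines were grown from metastases of prostate cancer and express the androgen receptor. With 1 library per line the spread between cultures is unknown, and every difference below compares these libraries.

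The retinoblastoma protein Rb is a pocket protein that binds E2F transcription factors at promoters and holds back genes of the cell cycle and of DNA replication. Phosphorylation by cyclin-dependent kinases releases it, and cyclin D1, the product of CCND1, is the regulatory subunit of kinases that do so. The bands 11q12 and 11q13 carry CCND1 together with FEN1, which encodes a nuclease of lagging-strand synthesis, the tumour suppressor gene MEN1, the NF-kappaB subunit gene RELA and the glutathione transferase gene GSTP1, which is commonly silenced by methylation in prostate cancer. In the gene order of RefSeq on GRCh38.p14, 236 protein-coding genes run from FEN1 to CCND1, which is 18.1% of the 1301 on chromosome 11. Peaks are given by position alone, because gene positions on hg19 were not used here.

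VCaP had its highest peak density of the genome in this stretch, and LNCaP was nearly as dense there as anywhere. Among windows of 11 Mb that start at a whole Mb, the stretch ranked 1 of all by VCaP peaks, the measure that chose it, and 7 by LNCaP peaks. The LNCaP list reached 289 peaks at most in such a window, on chromosome 19 from 48 to 59 Mb. The stretch held 2.43% of the VCaP peaks on chromosomes 1 to 22 and X, and 1.25% of the LNCaP peaks. VCaP thus had 0.832 peaks for each LNCaP peak here, against 0.423 over the rest of the genome, a difference that the choice of the stretch by VCaP peaks builds in. Which line had more peaks depended on how the lists were cut. The LNCaP list was cut to the length of the VCaP list by keeping its peaks of highest fold enrichment. VCaP then had 2.30 peaks for each LNCaP peak in the stretch, against 0.986 outside. LNCaP peaks had a median fold enrichment of 5.63 in the stretch and 6.00 outside, so the cut selects by enrichment as well as by length. At a fold enrichment of at least 10 the ratio was 0.385 in the stretch, against 0.176 outside. The peaks covered 107 kb in VCaP and 132 kb in LNCaP.

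The peaks were concentrated in the 5 bins from 63 to 68 Mb, and LNCaP held a larger part of its peaks outside them. In these bins lay 175 VCaP peaks, 76.8% of those in the stretch, and 170 LNCaP peaks, 62.0%. From 61 to 62 Mb there were 11 VCaP and 27 LNCaP peaks, and from 62 to 63 Mb 15 VCaP and 26 LNCaP peaks. The bin from 63 to 64 Mb turned the order round, with 28 VCaP peaks and 15 LNCaP peaks. From 64 to 65 Mb the lists held 37 VCaP and 41 LNCaP peaks, and from 65 to 66 Mb 46 VCaP and 45 LNCaP peaks. Among 2655 bins of 1 Mb with a peak, the bin from 65 to 66 Mb ranked 1 in VCaP and 2 in LNCaP. It was followed by 29 VCaP and 34 LNCaP peaks from 66 to 67 Mb and by 35 in each list from 67 to 68 Mb.

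Beyond 68 Mb both lists thinned out. The bin from 68 to 69 Mb held 7 VCaP and 16 LNCaP peaks, and that from 69 to 70 Mb 3 VCaP and 4 LNCaP peaks. From 70 to 71 Mb there were 7 VCaP and 10 LNCaP peaks, and from 71 to 72 Mb 10 VCaP and 21 LNCaP peaks. The longest distance between neighbouring summits in VCaP was 604 kb, from 70313800 to 70917391, and in LNCaP 564 kb, from 68890373 to 69454160. Across the 11 bins the peak numbers of the lines had the same broad order, with a Spearman's rho of 0.89, a description of bins that share gene and sequence content. The bins beside the stretch were sparse, with 6 VCaP and 11 LNCaP peaks from 60 to 61 Mb and 7 VCaP and 18 LNCaP peaks from 72 to 73 Mb. At the low end the VCaP summit nearest outside was at 60928968 (fold enrichment 5.49) and the first inside at 61129574 (5.75). Its LNCaP counterparts were at 60928955 (7.22) and 61062455 (7.36). At the high end the last VCaP summit inside was at 71934693 (6.54) and the first outside at 72182405 (4.16), and in LNCaP these were at 71951064 (5.39) and 72125310 (5.50).

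**Figure D1:**
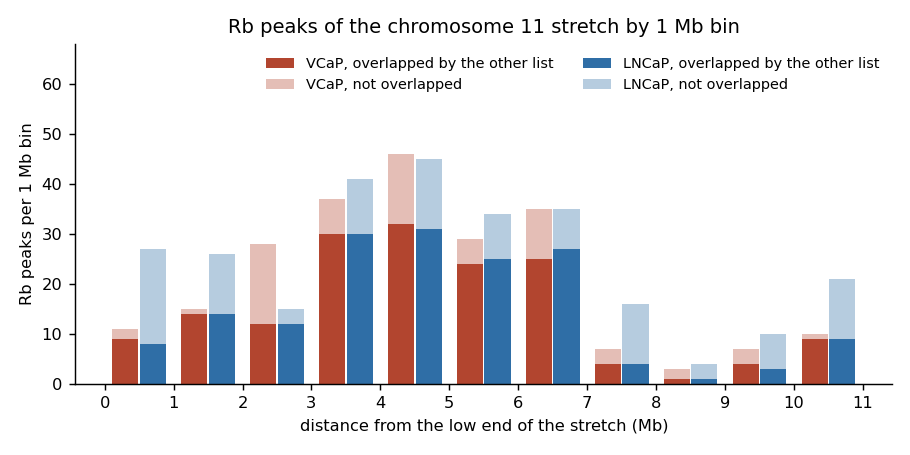
Rb peaks in each 1 Mb bin of the stretch, plotted against the distance from its low end at 61 Mb, with VCaP as the left bar and LNCaP as the right bar of each pair. Dark parts are peaks overlapped by a peak of the other list; the third pair of bars, 28 VCaP and 15 LNCaP peaks, is the only one of those from 61 to 65 Mb in which VCaP is higher.

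The dense bins with at least as many peaks in VCaP as in LNCaP are given as a description, since VCaP peak numbers chose the stretch and so favour that order within it. Of the 9 bins of the stretch with at least 20 peaks over both lists, VCaP had at least as many peaks as LNCaP in 3. Outside the stretch this held for 15 of 465 such bins, or 3.23%. Outside the stretch no bin had more than 32 VCaP peaks, and 4 had at least 28, against 5 within it. The highest LNCaP number in a bin outside was 46.

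Among peaks of the LNCaP list, sharing with VCaP was about 2 times as frequent in the stretch as elsewhere, whereas VCaP peaks were shared about as often as elsewhere. The intervals of this and other shares cover counting error only, and a peak counts as shared if it has at least 1 bp in common with a peak of the other list. In VCaP 164 of 228 peaks were shared, 71.9% (95% exact interval 65.6 to 77.7), where 71.2% of the whole list were. On the LNCaP side 164 of 274 were shared, 59.9% (53.8 to 65.7), where 30.2% of the whole list were. Outside the stretch the LNCaP share was 29.8% (29.2 to 30.5), and on the rest of chromosome 11 it was 28.03% (25.2 to 31.0). With lists cut to equal length, or at −log10 q of at least 5, the VCaP share was lower in the stretch than outside (36.4% against 52.4%, and 68.5% against 76.2%). Because a list with more peaks offers more partners, the LNCaP share and the VCaP density are not separate measures.

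High LNCaP sharing was not particular to this stretch. The densest VCaP windows of 11 Mb on other chromosomes were those on chromosome 19 from 44 to 55 Mb and on chromosome 6 from 26 to 37 Mb. In the chromosome 19 window 55.3% of 266 LNCaP peaks were shared (49.1 to 61.3), an interval that overlaps that of the stretch, and in the chromosome 6 window 43.0% of 244 (36.7 to 49.5). VCaP peaks were shared in 80.1% of cases (73.6 to 85.6) in the chromosome 19 window and in 67.9% (60.0 to 75.2) in that on chromosome 6.

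**Figure D2:**
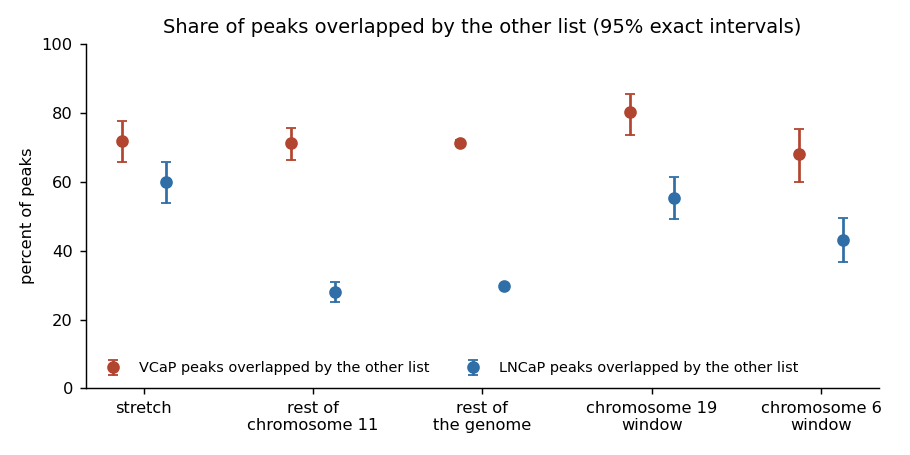
Share of the peaks of each list overlapped by the other list, with 95% exact intervals, for the stretch, the rest of chromosome 11, the rest of the genome and the windows on chromosomes 19 and 6. VCaP shares (left point of each pair) lie between 67.9% and 80.1%; the LNCaP share is 59.9% in the stretch and 29.8% in the rest of the genome.

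The higher LNCaP sharing was present in all 4 groups of equal size into which the LNCaP list was divided by fold enrichment. Fold enrichment is the authors' ratio of the tags at the summit to the local background of the same library. In the group with the lowest fold enrichment (up to 4.99), 43.3% of 104 stretch peaks were shared (33.6 to 53.3), against 10.6% outside (9.81 to 11.5). In the group with the highest (above 7.59), 87.8% of 49 were shared (75.2 to 95.4), against 62.4% (61.1 to 63.7). Divided by the tags in the 10 kb window around the peak, the group with the most (above 80 tags) had 71.7% of 173 shared (64.3 to 78.3), against 50.8% (49.4 to 52.2). In the group with the fewest (up to 25), 1 of 9 stretch peaks was shared, an interval of 0.281 to 48.2% that includes the 4.15% outside, and in the next (up to 51) 6 of 30 (7.71 to 38.6%), against 25.01% outside. Sharing of LNCaP peaks was thus not higher than elsewhere at every tag level. VCaP peaks with the most window tags (above 90) were shared in 73.3% of 176 cases in the stretch (66.1 to 79.7) and in 80.4% outside (78.7 to 82.1).

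The bin from 63 to 64 Mb stood out from the bins before it, with a low share of shared VCaP peaks and a high share of shared LNCaP peaks. From 61 to 62 Mb 9 of 11 VCaP peaks but only 8 of 27 LNCaP peaks were shared, and from 62 to 63 Mb 14 of 15 VCaP and 14 of 26 LNCaP peaks. From 63 to 64 Mb 12 of 28 VCaP peaks were shared, 42.9% (24.5 to 62.8), and 12 of 15 LNCaP peaks, 80.0% (51.9 to 95.7). The 4 bins from 64 to 68 Mb had between 69.6% and 82.8% of VCaP peaks shared and between 68.9% and 77.1% of LNCaP peaks. Over the 5 bins from 63 to 68 Mb 73.5% of LNCaP peaks were shared (66.2 to 80.0). In the other 6 bins the share was 37.5% (28.2 to 47.5), where VCaP had 77.4% (63.8 to 87.7). This division of the stretch was made after the bins had been seen.

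VCaP peaks from 63 to 68 Mb had high pileups, and the tags around them were high as well. Their median fold enrichment was 5.28, against 5.77 in the other 6 bins and 5.50 outside the stretch. The pileup is the number of extended tags over the summit. Its median was 22 in VCaP (quartiles 16 and 29) against 13 outside the stretch, and 18 in LNCaP (13 and 22) against 13 outside. At least 20 tags were reached by 61.4% of VCaP peaks (54.8 to 67.8), where 16.9% of the whole list did so, and by 40.9% of LNCaP peaks (34.999 to 47.0), where 24.3% of the whole list did. The high VCaP pileups lay between 63 and 68 Mb, where the median was 25 tags and 75.4% of 175 peaks (68.4 to 81.6) reached 20. In the other 6 bins the VCaP median was 14 tags and 8 of 53 peaks reached 20, or 15.1% (6.75 to 27.6), near the share of the whole list. LNCaP had 41.2% from 63 to 68 Mb and 40.4% in the other bins. The median fold enrichment was 5.54 in VCaP (4.53 and 6.52) against 5.50 outside, and 5.63 in LNCaP (4.59 and 7.16) against 6.00 outside. A fold enrichment of at least 10 was found at 5 VCaP peaks, 2.19%, where 3.32% of the whole list had it. In LNCaP 13 peaks had it, 4.74% (2.55 to 7.98), where 8.02% of the whole list did.

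Long VCaP peaks were likewise a feature of 63 to 68 Mb. Over the stretch the median VCaP length was 406 bp (305 and 569), against 312 bp outside, and 22.8% were at least 600 bp long (17.5 to 28.8), where 6.15% of the whole list were. From 63 to 68 Mb 49 of 175 VCaP peaks were that long, with a median of 425 bp, and in the other bins 3 of 53, or 5.66% (1.18 to 15.7), with a median of 328 bp. LNCaP peaks had a median of 448 bp (310 and 599) in the stretch and 394 bp outside, and 25.2% (20.2 to 30.8) in the stretch and 24.0% outside were at least 600 bp long. The longest VCaP peaks were at 65478974–65480055 (1082 bp, fold enrichment 7.36), 67158581–67159642 (1062 bp, 6.00), 63933198–63934243 (1046 bp, 5.63), 64084928–64085955 (1028 bp, 4.16) and 66383613–66384635 (1023 bp, 7.11), and all were shared. The longest of the LNCaP list were at 66383612–66384818 (1207 bp, 7.60), 63952718–63953872 (1155 bp, 5.40), 62598901–62599994 (1094 bp, 6.08), 70962602–70963674 (1073 bp, 5.77) and 62648160–62649197 (1038 bp, 6.20), and the first 3 were shared. Of all peaks of the stretch, 71.9% were shared in VCaP and 59.9% in LNCaP.

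The VCaP tag level stepped up at about 63 Mb and was lower again beyond 68 Mb, while the LNCaP bin medians varied less. The tags in the 10 kb window around each peak were computed back from its pileup and fold enrichment, and they include the tags of the peak itself. The VCaP peak at 62791544–62791788 had 34 tags in its window and the next, at 63246353–63246788, had 199. From 61 to 62 Mb the median was 83 VCaP tags and from 62 to 63 Mb 58, against 67 for VCaP peaks outside the stretch. From 63 to 64 Mb it was 232 tags, with a lowest value of 154, above the highest value of 106 in the bin before. The medians were then 186 tags from 64 to 65 Mb, 166 from 65 to 66 Mb, 162 from 66 to 67 Mb and 150 from 67 to 68 Mb. The fall at the high end was less even. The lowest value from 67 to 68 Mb was 79 tags. The peak at 68025011–68025330 had 73 tags, that at 68039266–68039821 had 163, and the next had 88. The 4 bins beyond 68 Mb had medians of 74, 51, 64 and 72 tags, and highest values of 163, 135, 95 and 160.

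LNCaP windows held many tags over the whole stretch. Their bin medians lay between 89 and 108 tags from 61 to 68 Mb and between 69 and 89 beyond, against 50 for LNCaP peaks outside the stretch. From 62 to 63 Mb the LNCaP median was 92.5 tags and from 63 to 64 Mb 94, where the VCaP median differed by a factor of 4. Relative to peaks outside the stretch, the bin from 63 to 64 Mb stood at 3.46 times the VCaP level and 1.88 times the LNCaP level. Of the 175 VCaP peaks from 63 to 68 Mb, 165 had more tags in their window than the upper quartile of 88 outside the stretch, as did 15 of the 53 in the other bins. For LNCaP, with an upper quartile of 79, the counts were 120 of 170 from 63 to 68 Mb and 59 of 104 in the other bins.

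**Figure D3:**
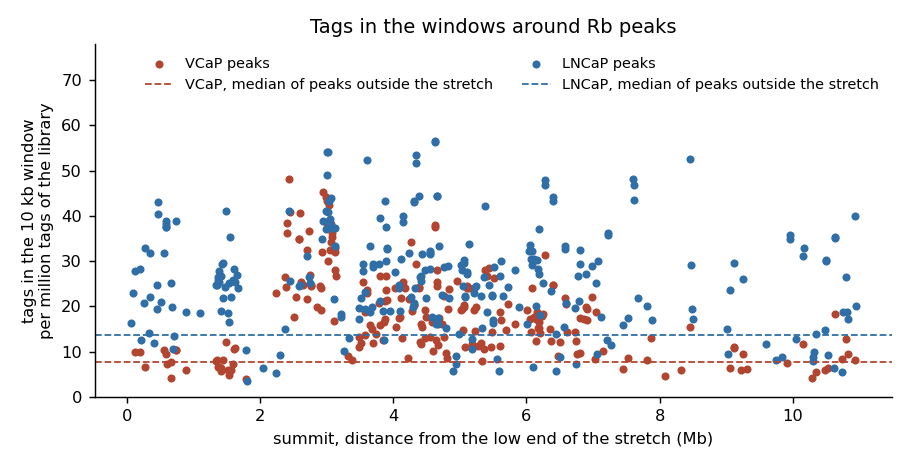
Tags in the 10 kb window around each Rb peak, scaled to library size as labelled on the axis, against the distance of its summit from the low end of the stretch; dashed lines are the medians of each list outside the stretch. Most VCaP points lie well above their line between about 2 and 7 Mb from the low end, where the bin medians are 150 to 232 tags before scaling. LNCaP points lie above theirs along most of the stretch.

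At overlapping pairs, VCaP windows held fewer tags, relative to library size, than LNCaP windows, and much less so from 63 to 68 Mb. Each shared VCaP peak gave 1 pair, so an LNCaP peak with more than 1 VCaP partner could enter more than once. Over the 164 pairs of the stretch the log2 of VCaP over LNCaP had a median of -0.63 (95% interval from order statistics -0.80 to -0.55), against -1.24 (-1.27 to -1.23) outside. Its value was -1.70 from 61 to 62 Mb (9 pairs) and -1.80 from 62 to 63 Mb (14 pairs). It was 0.22 from 63 to 64 Mb (12 pairs), and between -0.58 and -0.43 from 64 to 66 Mb (62 pairs). From 66 to 67 Mb (24 pairs) it was -0.56 and from 67 to 68 Mb (25 pairs) -0.59. The 123 pairs from 63 to 68 Mb had -0.49 (-0.58 to -0.42) and the 41 pairs of the other bins -1.63 (-1.76 to -1.42). Without the tags over the summit the value was -0.57 (-0.72 to -0.45) for the stretch and -1.04 outside.

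Where VCaP windows held the most tags, VCaP also had the most peaks relative to LNCaP. There were 1.03 VCaP peaks for each LNCaP peak from 63 to 68 Mb and 0.510 in the other bins, which is nearer to the 0.423 of the genome outside. The bins from 63 to 68 Mb were set apart after the peak numbers had been seen, so this difference is in part built in. The window tags also include the tags of the peaks themselves. Across the 11 bins Spearman's rho between the ratio of peak numbers and the median tag ratio was 0.71, a description of bins that share libraries, 1 of them with a single pair. The DNA copy number of the stretch was not measured in these files, and the part of the tag level in the peak numbers was not tested.

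Shared sites in the stretch had more similar enrichment in the lines than shared sites elsewhere. Fold enrichment was the higher in VCaP in 64 of 164 pairs, 39.0% (31.5 to 46.9), where 19.2% of all pairs had that order. The median ratio of VCaP over LNCaP fold enrichment was 0.892 (0.837 to 0.966), against 0.753 (0.748 to 0.760) outside. This came with a lower fold enrichment of the LNCaP peaks in these pairs, with a median of 6.36 in the stretch and 7.77 outside, while the VCaP medians were 5.80 in the stretch and 5.71 outside. In the chromosome 19 window VCaP was the higher in 42.3% of 149 pairs (34.2 to 50.6), so that this order was not particular to the stretch. With pileup scaled to library size in place of fold enrichment, VCaP was the higher in 6.71% of the pairs of the stretch (3.40 to 11.7), where 1.26% of all pairs had that order. The median log2 of VCaP over LNCaP scaled pileup was -0.999 in the stretch and -1.76 outside.

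Summits of shared peaks lay close together. The median distance was 61.5 bp (quartiles 22 and 127) in the stretch and 74 bp outside, and 143 of 164 pairs were within 200 bp, 87.2% (81.1 to 91.9), against 82.4% (81.5 to 83.4). This was not particular to the stretch. On the rest of chromosome 11 the median was 60 bp, with 86.2% (81.5 to 90.1) within 200 bp. It was 64 bp in the chromosome 6 window and 84 bp in the chromosome 19 window. Peak lengths were closer in the stretch than outside, with a median ratio of VCaP over LNCaP of 0.927 (0.865 to 0.998), against 0.631 (0.623 to 0.639). The chromosome 19 window had 0.861 (0.777 to 0.900) and the chromosome 6 window 0.797 (0.721 to 0.891). Within the stretch the length ratio was 1.02 (0.963 to 1.11) from 63 to 68 Mb and 0.701 (0.528 to 0.842) in the other bins. Spearman's rho of fold enrichment across the pairs of the stretch was 0.39, and 0.36 without the 2 pairs farthest from the VCaP median. Outside the stretch it was 0.35. Pairs are not replicates and their windows overlap in places, so this is a description.

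**Figure D4:**
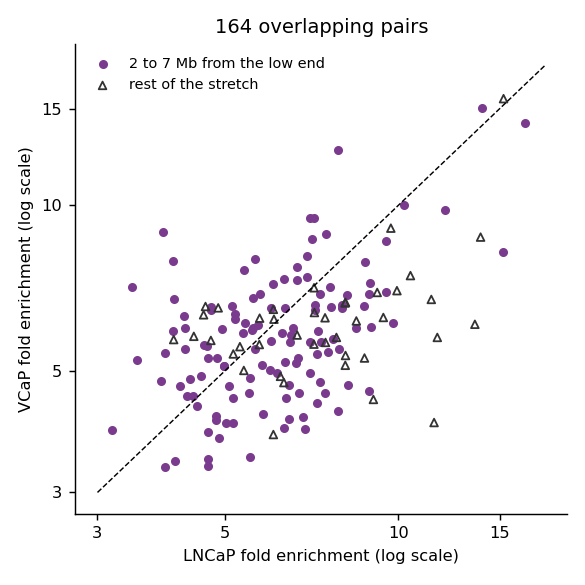
Fold enrichment of the 164 overlapping pairs in VCaP (vertical) and LNCaP (horizontal), both on log scales, with the line of equal values. Filled circles are pairs from 63 to 68 Mb and triangles the rest; 64 pairs lie above the line.

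A group of sites ranked near the top of the stretch in both lines. The site at 71639249–71639744 (VCaP interval, as for the pairs that follow) had a fold enrichment of 15.7 with 71 summit tags in VCaP, and of 15.2 with 62 tags in LNCaP. At 67593833–67594300 there were 70 tags and 14.1 in VCaP, and 46 tags and 16.6 in LNCaP. At 65029179–65029671 VCaP had 85 tags and 15.1, and LNCaP 47 tags and 14.0, with summits 4 bp apart. These 3 sites ranked 36, 73 and 46 in the whole VCaP list, and 144, 78 and 260 in the whole LNCaP list. The stretch was therefore dense in peaks without holding the most enriched peaks of either list.

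Next among the shared sites was 63438312–63439315, which held the highest VCaP pileup of the stretch. It had 101 tags and a fold enrichment of 9.80 in VCaP, over 418 tags in its window, and 55 tags and 12.1 in LNCaP over 151. The site at 67723020–67723457 had 10.0 in VCaP and 10.2 in LNCaP. The pair at 71476209–71476563 had 8.76 in VCaP and 13.9 in LNCaP, and that at 62341305–62341807 had 9.09 in VCaP and 9.71 in LNCaP. At 66205866–66206588 the values were 8.24 in VCaP and 15.2 in LNCaP, at 66610587–66611185 8.61 in VCaP and 9.52 in LNCaP, and at 62572648–62573160 7.45 in VCaP and 10.5 in LNCaP. These complete the 10 pairs with the best worse rank over both lists of the stretch.

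Other VCaP peaks among the 10 of highest fold enrichment were at 65679199–65679588 (12.6), 65640907–65641395 (9.50), 64480856–64481187 (9.49) and 63741794–63742506 (8.95). All 10 were shared. Other LNCaP peaks among the 10 highest were at 62389059–62389838 (13.6), 61196996–61197675 (11.7), 71524513–71524995 (11.5) and 62623293–62623834 (11.4), and again all 10 were shared. These peaks leave out the sites already named. Sharing was frequent among enriched peaks in general. Above a fold enrichment of 6.44, 87.3% of VCaP peaks of the stretch were shared, against 86.6% outside. Above 7.59, 87.8% of its LNCaP peaks were, against 62.4% outside. None of the 4 LNCaP peaks listed here lay between 63 and 68 Mb, and all 4 VCaP peaks did. This split holds only with the named sites left out. Among all 10 of the LNCaP list, those at 67593838–67594232, 66205890–66206343, 65029119–65029843 and 63438548–63439332 lay between these limits. Among all 10 of the VCaP list, those at 71639249–71639744 and 62341305–62341807 lay outside them. The bins from 63 to 68 Mb held 76.8% of all VCaP peaks of the stretch and 62.0% of the LNCaP peaks.

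**Figure D5:**
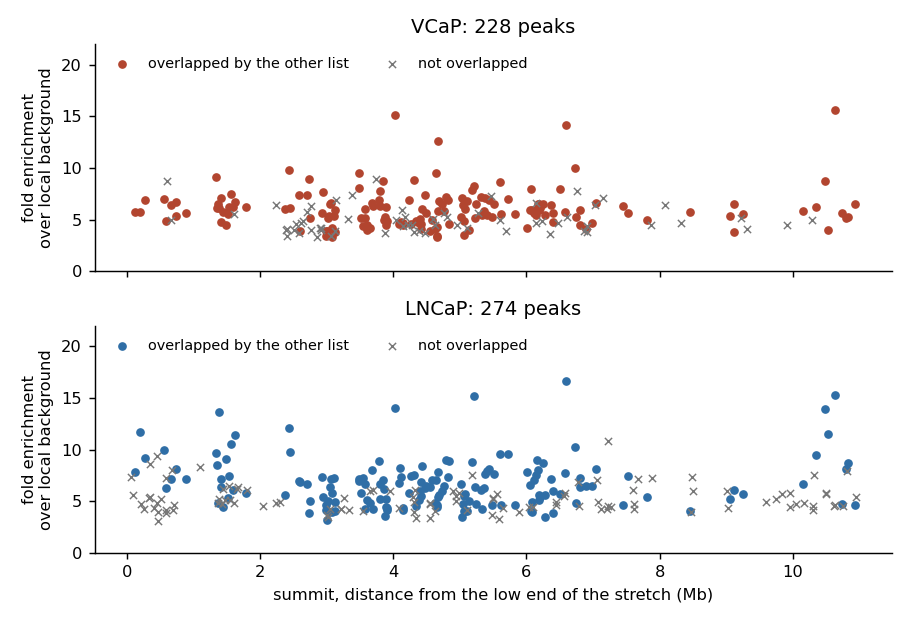
Fold enrichment of every Rb peak of the stretch in VCaP (above) and LNCaP (below) against the distance of its summit from the low end. Circles are peaks overlapped by the other list and crosses are not; the 10 highest peaks of each list are circles.

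The pairs with the most unequal fold enrichment are given here with the part of the stretch they lay in. VCaP was the higher by the largest ratio at 63741794–63742506, with a fold enrichment of 8.95 from 72 summit tags in VCaP and of 3.89 from 12 in LNCaP. It was followed by 66035797–66036148 (7.11 in VCaP and 3.45 in LNCaP), 67070684–67071228 (7.92 in VCaP, 4.05 in LNCaP), 66115324–66115787 (6.76 in VCaP, 4.08 in LNCaP) and 65679199–65679588 (12.6 in VCaP, 7.87 in LNCaP). These 5 lay between 63 and 68 Mb, as did 123 of all 164 pairs of the stretch. LNCaP was the higher by the largest ratio at 71524649–71525108, with 8 tags and 4.02 in VCaP and 20 tags and 11.5 in LNCaP. The next were 62389319–62389695 (6.07 in VCaP and 13.6 in LNCaP), 62494751–62494982 (4.43 in VCaP, 9.05 in LNCaP), 61197248–61197575 (5.75 in VCaP, 11.7 in LNCaP) and 65837459–65837858 (4.60 in VCaP, 8.88 in LNCaP), of which only the last lay between 63 and 68 Mb. They were picked as extremes of the ratio, and their differences carry no test.

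Unshared peaks were the less enriched and shorter ones in both lists, in the stretch and outside it. In VCaP fold enrichment at the 64 unshared peaks was 4.67 in the median (4.03 and 5.56 as quartiles), and at the 164 shared peaks 5.80 (4.89 and 6.65). Their median lengths were 316.5 bp where unshared and 466 bp where shared. LNCaP had 4.92 (4.37 and 5.93) at its 110 unshared peaks and 6.34 (4.88 and 7.66) at its shared ones, with median lengths of 321.5 bp where unshared and 514 bp where shared. Outside the stretch VCaP had medians of 5.14 and 264 bp where unshared and 5.71 and 341 bp where shared. LNCaP had 5.53 and 325 bp where unshared there, and 7.72 and 582 bp where shared. A summit of the other list lay within 1000 bp of 5 of the 64 unshared VCaP peaks, 7.81% (2.59 to 17.3), where 9.17% of all unshared VCaP peaks had one. It did so for 13 of the 110 unshared LNCaP peaks, 11.8% (6.45 to 19.4), where 4.33% of all unshared LNCaP peaks had one. Of these 13, 11 lay between 63 and 68 Mb, as did 45 of the 110. VCaP peaks are densest in those bins, so that a near VCaP summit is in part built in. The median distance from an unshared peak to the nearest summit of the other list was 13.9 kb for VCaP and 17.9 kb for LNCaP.

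The 16 unshared VCaP peaks from 63 to 64 Mb were the largest group of unshared VCaP peaks in a bin. Their pileups ran from 15 to 36 tags, with a median of 25, over windows of 154 to 334 tags, and their median fold enrichment was 4.11. The 12 shared VCaP peaks of the same bin had a median of 46.5 tags and 6.06. Of the unshared VCaP peaks of highest fold enrichment, none was in this bin. They were at 64739361–64739879 (32 tags, 8.92), 61597735–61598096 (20 tags, 8.69), 67761215–67761522 (21 tags, 7.73), 64375554–64375857 (18 tags, 7.38) and 66462228–66462623 (22 tags, 7.28).

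The bin with the most unshared LNCaP peaks was that from 61 to 62 Mb, where 19 of 27 lacked a VCaP partner, a share close to the 69.8% of the whole LNCaP list. By share the bins from 68 to 69 Mb, with 12 of 16, and from 69 to 70 Mb, with 3 of 4, were higher. The highest unshared LNCaP peak of the stretch was at 68228197–68228706, with 44 summit tags and a 10.8-fold enrichment, and its nearest VCaP summit was 80.5 kb away. The others were at 61447625–61448249 (29 tags, 9.40), 61348489–61349174 (32 tags, 8.64), 62104736–62105424 (21 tags, 8.34) and 61684686–61685241 (21 tags, 7.97). All 5 lay outside 63 to 68 Mb, in bins whose median VCaP window held 58 to 83 tags. Whether the VCaP library could have shown a peak at these places was not tested.

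Peaks of the stretch often had a close neighbour. A summit of the same list lay within 10 kb for 39.0% of VCaP peaks (32.7 to 45.7), where 15.1% of the whole list had one. It did so for 81 of 175 VCaP peaks from 63 to 68 Mb and for 8 of 53 in the other bins. In LNCaP one lay within 10 kb for 48.5% of peaks (42.5 to 54.6), where 28.5% of the whole list did. Since density chose the stretch, this follows in part from the choice. Close neighbours were also frequent in the chromosome 6 window, for 31.4% of VCaP peaks (24.2 to 39.3) and 43.0% of LNCaP peaks (36.7 to 49.5). In the chromosome 19 window the shares were 23.7% in VCaP and 34.6% in LNCaP. When peaks of both lists that overlap were joined, the stretch held 332 sites, of which 158 had peaks of both lines, 64 of VCaP alone and 110 of LNCaP alone. With gaps of up to 10 kb, 82 of these sites formed 24 runs of at least 3 sites. Runs outside the stretch were not counted.

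The runs differed in how alike the lines were. The run at 64863312–64889999 held 5 sites over 26.7 kb, of which 4 had peaks of both lines; the fold enrichments of its VCaP peaks ran from 3.66 to 6.21 and those of its LNCaP peaks from 3.52 to 6.17. A run of 5 sites at 67140152–67169441 had 5 VCaP and 3 LNCaP peaks, and its 3 LNCaP peaks, with 7.54 to 8.98, were all shared. In the run at 65405357–65430977 all 4 sites were shared, with 4.12 to 5.98 in VCaP and 5.51 to 8.43 in LNCaP. At the low end, the run at 61447625–61467614 had 4 LNCaP peaks, with 3.12 to 9.40, and no VCaP peak. At 66485429–66496186 there were 4 LNCaP peaks, with 3.70 to 5.31, and 1 VCaP peak with 5.28.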

How the data were processed

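The deposited peak lists come from MACS version 2.1.0.20140616, run by the authors on each library without a control at a q-value limit of 0.05, per the file headers. The submitters' processing notes name hg19, MACS2 and HOMER; for the aligner and the role of HOMER: not given in the sources used here. The deposited pileup is a coverage signal in tags, not scaled to depth. The deposited fold enrichment is a ratio of pileup plus 1 to local background plus 1. Significance was deposited as −log10 p and as −log10 q, beside the peak length in bp. Per the file headers the fragment length was 225 bp in VCaP and 241 bp in LNCaP, and the local background came from 10000 bp. The background was computed back as tags per 10 kb, whole within 0.05 tags for 100% of peaks above the genome mean, which is 31.2 tags in VCaP and 13.2 in LNCaP. It was the background of 0 VCaP and 1 LNCaP peak of the stretch.

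Peaks on chromosomes 1 to 22 and X were compared. Of several partners, that of highest fold enrichment was taken, and 6 peaks in each list had more than 1. Pairs were formed from the VCaP side, so an LNCaP peak could enter more than once, and the intervals treat each pair as separate. Intervals are exact binomial (Clopper-Pearson, 95%), and those of medians come from binomial order statistics. Named are the 10 highest peaks, the 5 highest unshared and the 5 longest per list, the 10 pairs of best worse rank, the 5 most unequal pairs in each direction and the peaks at both edges; the runs were chosen after their values were seen. The members, bins and lists were chosen with earlier results of these data known. Scripts (Python 3.11.15, pandas 2.3.3, scipy 1.17.1) were tested on simulated data. Gene starts and sequence features were not analysed here, since no hg19 genome or annotation was used.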

Additional observations from a re-analysis of the deposited data

How the results depend on the processing

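Of 39 recomputed values, 21 stayed within the interval (or within 1.5 times the count) of the reported value and 18 did not. The VCaP share of all peaks of both lists in the stretch (45.4%) was 27.8% at a fold enrichment of at least 10, where 5 VCaP and 13 LNCaP peaks are left, 69.7% with lists of equal length, which turns round which line had more peaks there, and 33.8% without the bins from 63 to 68 Mb. Outside the stretch these settings gave 14.9%, 49.7% and 29.7%. The highest VCaP number in a bin (46) was 23 at a fold enrichment of at least 5 and 2 at one of at least 10. With reciprocal overlap of at least 50% the shared percentage was 57.5 in VCaP (42.4 outside the stretch) and 47.8 in LNCaP (17.9 outside), and with summits within 200 bp 63.6 in VCaP (58.9 outside) and 52.9 in LNCaP (24.9 outside). Lists of equal length, made by keeping the LNCaP peaks of highest fold enrichment, keep 99 LNCaP peaks of the stretch. With them 36.4% of VCaP and 82.8% of LNCaP peaks were shared, against 52.4% and 50.6% outside. The VCaP share was then below that outside. At −log10 q of at least 5 it was also below, with 68.5% against 76.2%. Without the bins from 63 to 68 Mb, a setting added after seeing the data, 37.5% of LNCaP peaks were shared, VCaP had the higher fold enrichment in 29.3% of pairs, the median tag ratio was -1.63 and the median VCaP fold enrichment was 5.77. By pileup scaled to library size VCaP was the higher in 6.71% of pairs. At −log10 q of at least 5 the median fold enrichments were 5.91 in VCaP and 6.32 in LNCaP, since low peaks are left out.

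The alternatives for gene starts and for sequence windows were not run. No paired analysis was possible because each line has 1 library. The effect of depth on either list was not tested, and no value here has a replicate.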
